A study of Mus musculus with 4 samples.

Results

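The genes of the ISG15 conjugation machinery were examined in cultured primary (1°) mouse oligodendroglial cells (OGCs) with and without conditional deletion of Zfp276. The study describes this deletion as incomplete. The 6 genes were chosen by name from the count files: Isg15, which encodes the modifier, Uba7, Ube2l6, Herc6 and Trim25, which encode enzymes that attach it, and Usp18, which encodes the protease that removes it. All 6 were listed once each among 53465 entries, and all 6 were among the 15766 genes that passed the filter on low counts. RNA-Seq compared 2 preparations of ctrl cells (genotype Zfp276 flox/flox) with 2 preparations of Zfp276cko cells (genotype Sox10::Cre tg; Zfp276 flox/flox), each pooled from 3 mice aged 2 to 4 days, after 3 days of differentiation. Both genotypes therefore carried the floxed Zfp276 alleles and differed in the Cre transgene, which is a BAC driven by Sox10 and active in OGCs from the precursor stage on. Mice for such cultures also had a Rosa26 tdTomato reporter allele crossed in, and both sexes of a C3H x C57Bl/6J mixed background were used. Cells were shaken off mixed forebrain glia and depleted of microglia, and a remainder of other glia was possible.

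ISG15 is a small protein of 2 ubiquitin-like domains that cells make when type I interferon acts on them. It is joined to lysines of other proteins by a cascade like that of ubiquitin, in which an E1 enzyme activates it, an E2 enzyme carries it and an E3 ligase passes it to the target. Usp18 cuts it off again, and independently of its protease activity it binds the interferon receptor and dampens signalling, so that the same gene is an enzyme of the system and a brake on the pathway that induces it. In interferon-treated cells the genes of this machinery are induced together.

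The promoters are shown because interferon-induced genes often carry a site for interferon-regulated factors near the start, and because they let the members be compared by sequence rather than by counts. Promoter sequences of RefSeq (GRCm38.p6, the assembly of mm10) matched 5 of the 6 genes, all but Usp18. In the 250 bases before the start, both strands were searched for GAAANNGAAA (the core of the interferon-stimulated response element, ISRE) and for AANNGAAA (the shorter element of interferon regulatory factors, which is contained in every ISRE core). Capitals mark both motifs on either strand.

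Isg15: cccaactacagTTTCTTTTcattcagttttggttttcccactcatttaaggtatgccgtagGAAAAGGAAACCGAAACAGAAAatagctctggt

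Uba7: actcagtctagTTTCACTTttggtttcctg

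Ube2l6: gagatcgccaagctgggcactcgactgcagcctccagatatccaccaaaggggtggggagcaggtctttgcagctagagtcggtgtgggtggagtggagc

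Herc6: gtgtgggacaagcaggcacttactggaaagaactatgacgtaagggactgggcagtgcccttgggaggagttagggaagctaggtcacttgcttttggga

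The Isg15 stretch lies at chr4:156200864-156200957 on the minus strand and holds 3 overlapping ISRE cores between 78 and 57 bases before the start. The Uba7 stretch (chr9:107975529-107975558, plus strand) holds the shorter element once, 27 to 20 bases before the start and on the opposite strand. The RefSeq start of Uba7 lies downstream of the GENCODE start given below, so this stretch falls within the bounds of the gene in GENCODE. For Ube2l6 (chr2:84798728-84798827) and Herc6 (chr6:57580892-57580991), both on the plus strand, the last 100 bases before the start are printed, and their windows held neither motif. In the window of Trim25, too, neither was found. Of all 32851 promoters in the table, 2.98% held the ISRE core and 21.3% the shorter element. These matches describe letters only.

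In mm10 the genes lie on 5 chromosomes. Isg15 is on chromosome 4 (156199424 to 156200818) and is the shortest, with 2 exons and a transcript of 756 nt. Uba7 lies on chromosome 9 (107975505 to 107984060), Ube2l6 on chromosome 2 (84798828 to 84810335) and Trim25 on chromosome 11 (88999376 to 89020293). Herc6 (57581000 to 57664632) and Usp18 (121245906 to 121270917) are both on chromosome 6. In the GENCODE annotation, Herc6 shares 13.7% of its exon bases with Gm45193 on the same strand, Uba7 shares 3.48% with Gm20661 on the same strand, and Usp18 shares 4.44% with the antisense Gm44148. Gm45193 was listed at 0 in all libraries, and the other 2 had at most 9 counts in a library. How reads in shared exons were assigned was not tested. Some 101-base stretches of the longest protein-coding transcript were also in a transcript of another gene. The shares were 20.8% for Herc6 (in Gm45193), 3.17% for Uba7 (Gm20661), 1.56% for Usp18 (Gm44148) and 0.959% for Ube2l6 (Gm17167). For Isg15 and Trim25 the share was 0%. Gm45193, Gm20661 and Gm44148 are the overlapping genes named above, and no other gene held these stretches of Herc6, Uba7 and Usp18.

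Libraries held between 21068322 and 26599809 counted reads. The ctrl libraries stood apart from each other, with 12.7% of 14324 genes at least 2-fold apart against 0.307% between the Zfp276cko libraries. This spread enters every test below that uses both ctrl libraries. Zfp276 itself had 1648 and 2230.3 normalized counts in the ctrl pair, against 489.5 and 503 in the Zfp276cko pair (log2 fold change −1.97, standard error 0.18), and Sox10 had −0.09 (standard error 0.13). Of 10 oligodendrocyte markers, 8 had both Zfp276cko libraries below both ctrl libraries (24.8% of 14324 genes did so), and their summed level ranged from 241700 to 290997 normalized counts in ctrl and from 159677 to 161339 in Zfp276cko cells. All 10 were thus present in the cultures, as the label of the cells says.

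All 6 genes of the machinery had more reads in both Zfp276cko libraries than in either ctrl library. The means were between 3.26-fold (Trim25) and 25.8-fold (Isg15) higher in Zfp276cko cells, and the median log2 fold change of the 6 was 2.85, beside −0.0013 over all 15766 tested genes. Such a separation of the libraries in this direction was found for 26.4% of the 14324 genes whose normalized counts averaged 20 or more. In edgeR's quasi-likelihood test, with p-values adjusted by Benjamini-Hochberg over all tested genes, none of the 6 passed an adjusted p of 0.05, and neither did any other gene (0% of the 15766 called higher, lowest adjusted p 0.0725). When the p was left unadjusted (at most 0.05) and thresholds of 0.6 on the log2 fold change and 20 on the mean normalized count were kept, all 6 passed, as did 806 genes in this direction (5.11%). DESeq2 called 6 of 6 at its adjusted p and the same thresholds, beside 2.8% of its 15896 genes with an adjusted p. With limma voom and quality weights per genotype, 5 of 6 were called, all but Uba7, beside 0.844% of the tested genes.

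**Figure D1:**
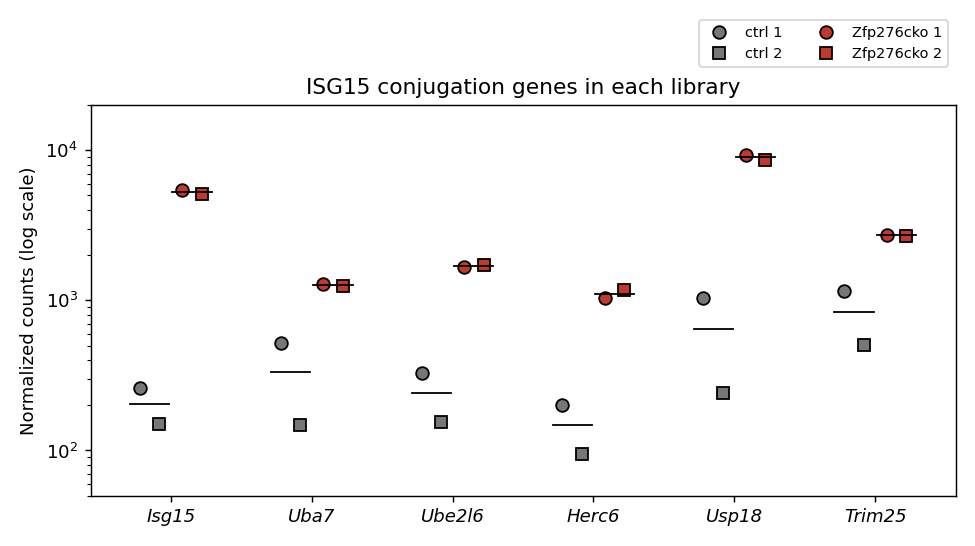
Normalized counts of the 6 genes (log axis) in each library, with grey symbols for ctrl, red symbols for Zfp276cko and horizontal lines at the genotype means. For each gene both red symbols lie above both grey ones, and the grey symbols are further apart than the red ones.

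Isg15, the modifier, had normalized counts of 260.0 in ctrl replicate 1, 149.7 in ctrl replicate 2, 5447 in Zfp276cko replicate 1 and 5134 in Zfp276cko replicate 2, the order used for each gene below. Means were 205 ± 78.0 for ctrl and 5291 ± 221 for Zfp276cko (SD, n = 2 each). Among the 6 genes it had the largest difference between genotypes and the smallest difference between the ctrl replicates. This amounts to 4.69 ± 0.31 (standard error) as a log2 fold change, with an adjusted p of 0.0962 in edgeR, and it ranked 12 from the top of all tested genes. The lower of the Zfp276cko libraries was 4.30 above the higher of the ctrl libraries on the log2 scale, so that the gap between genotypes exceeded the 0.79 between the ctrl replicates.

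Uba7, the E1 enzyme that activates ISG15, had 518 and 149 normalized counts in the ctrl pair, against 1295 and 1239.8 in the Zfp276cko pair. The ctrl replicates differed by 1.80 on the log2 scale, with replicate 1 the higher, while the gap from there to the lower Zfp276cko library was 1.26. The log2 fold change, 1.93 ± 0.61 (standard error) with an adjusted p of 0.277 in edgeR, was therefore the least certain of the 6 relative to its error. Leaving out ctrl replicate 1 gave 3.09, and leaving out ctrl replicate 2 gave 1.28.

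Ube2l6, the E2 enzyme that carries ISG15, had 327 and 155 normalized counts in the ctrl pair, against 1658 and 1717 in the Zfp276cko pair, or 2.81 ± 0.39 (standard error) as a log2 fold change, with an adjusted p of 0.123 in edgeR. Herc6, the main E3 ligase of ISG15 in the mouse, had 202 and 94.5 in the ctrl pair, against 1032 and 1165 in the Zfp276cko pair, or 2.89 ± 0.40 with the same adjusted p. For both enzymes the gap between the genotypes, at 2.34 and 2.35 on the log2 scale, was larger than the 1.07 and 1.09 between the ctrl replicates. Leaving out ctrl replicate 1 moved Ube2l6 to 3.44 and Herc6 to 3.54, and with ctrl replicate 2 left out they were at 2.36 and 2.43. Their profiles were closer to each other than those of any other pair of members, with a root mean square difference of 0.060 between their centred log2 values over the 4 libraries.

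Trim25, a ligase that attaches ISG15 and also ubiquitin and that activates the RNA sensor RIG-I, was the member with the smallest difference. Its normalized counts were 1162 and 501 in the ctrl pair, against 2732 and 2697 in the Zfp276cko pair (1.71 ± 0.42 as a log2 fold change with its standard error, adjusted p 0.207 in edgeR). The step of 1.21 from the higher ctrl library to the lower Zfp276cko library was equal in size to the 1.21 between the ctrl replicates. The log2 fold change of Trim25 became 2.44 when ctrl replicate 1 was left out and 1.21 when ctrl replicate 2 was. DESeq2 gave an adjusted p of 0.00164 for it and 0.0136 for Uba7.

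Usp18, the protease and receptor-binding brake, had 1044 and 243 normalized counts in the ctrl pair, against 9317 and 8628 in the Zfp276cko pair. Means were 643 ± 566 for ctrl and 8972 ± 488 for Zfp276cko (SD, n = 2 each), which gave 3.80 ± 0.76 (standard error) as a log2 fold change and an adjusted p of 0.172 in edgeR. No other member differed as much between the ctrl replicates, which were 2.10 apart on the log2 scale. With ctrl replicate 1 left out the log2 fold change came to 5.21, and with ctrl replicate 2 left out to 3.09, so that its order relative to Isg15 (5.14 and 4.33) depended on the ctrl library used.

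**Figure D2:**
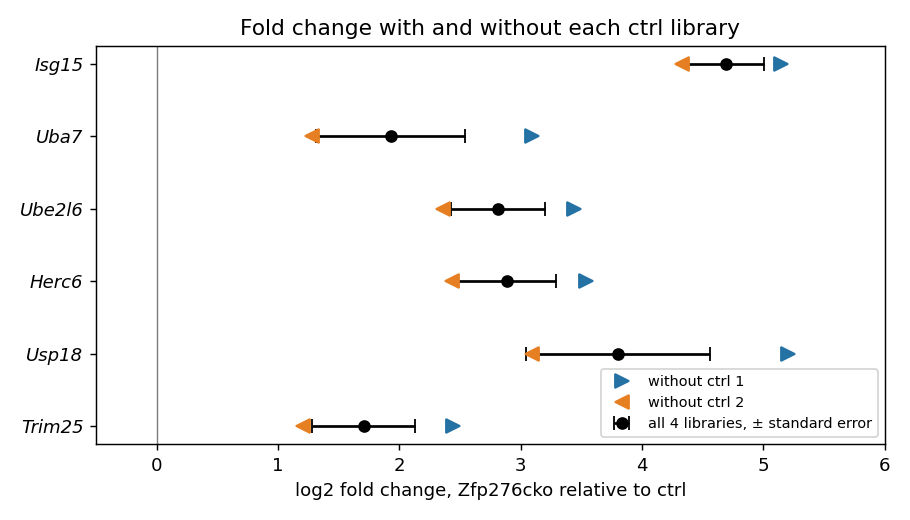
Log2 fold change of Zfp276cko relative to ctrl cells for each gene, with black points and bars for all 4 libraries and the standard error, and triangles for the fits without ctrl replicate 1 or 2. Each value lies above 0, from 1.21 (Trim25 without ctrl replicate 2) to 5.21 (Usp18 without ctrl replicate 1).

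In all 6 genes ctrl replicate 1 lay above ctrl replicate 2, by 0.79 to 2.10 on the log2 scale, while the Zfp276cko replicates differed by 0.18 or less. Summed over the 6 genes, the level was 3512 normalized counts in ctrl replicate 1, 1292 in ctrl replicate 2, and 21480.4 and 20581 in Zfp276cko replicates 1 and 2. Ctrl replicate 1 thus held an intermediate level of the machinery. An exact permutation test of each gene's log2 level gave p = 0.333 (two-sided), which is the smallest value that 2 libraries against 2 allow. All fold changes stayed positive in 60 of 60 alternative fits, which reused the same separated libraries and so could hardly give another direction.

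To compare levels between the genes, normalized counts were divided by the length of the longest protein-coding transcript. Per kb, the order from the highest level down in Zfp276cko cells was Isg15 (6998 ± 293, SD, n = 2), Usp18 (5066 ± 275), Ube2l6 (1082 ± 27.1), Trim25 (486 ± 4.41), Uba7 (397 ± 12.2) and Herc6 (230.4 ± 19.8). Each step in this order exceeded the spread of the replicates. In ctrl cells the means per kb were 363 ± 320 for Usp18, 271 ± 103 for Isg15 and 154 ± 77.6 for Ube2l6. For Trim25, Uba7 and Herc6 they were 149 ± 83.7, 104 ± 81.7 and 31.1 ± 15.9. No neighbours from Usp18 to Uba7 differed beyond their spread between the ctrl libraries. Within each ctrl library, however, Ube2l6, Trim25, Uba7 and Herc6 kept ranks 3, 4, 5 and 6, as in the Zfp276cko libraries. Only Usp18 and Isg15 changed places between the ctrl libraries. In Zfp276cko cells the modifier and its protease were thus counted more per kb than the enzymes that attach it. Within each ctrl library they were also above all of these enzymes. In ctrl replicate 1, Usp18 had 589 and Isg15 344, against 209 for Ube2l6. In ctrl replicate 2, Isg15 had 198 and Usp18 137, against 99.5 for Ube2l6. Only between the ctrl libraries did the spread of Isg15 and Usp18 overlap that of Ube2l6, Trim25 and Uba7. With the union of all exons as length, the order in Zfp276cko cells was the same. In ctrl cells Isg15 (271) then came before Usp18 (231), and Trim25 (145) before Ube2l6 (121).

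The share of each gene in the machinery is given as a description. With 2 libraries against 2, no ratio between genes could pass an exact permutation test (smallest two-sided p 0.333). Isg15 made up 22.1% and 33.5% of the summed level per kb in the ctrl pair, against 49.2% and 48.9% in the Zfp276cko pair. Trim25 accounted for 13.4% and 15.2% in ctrl and for 3.34% and 3.48% in Zfp276cko cells, and Uba7 for 10.4% and 7.87% in the ctrl pair, against 2.77% and 2.80% in the Zfp276cko pair. The share of Usp18 was 37.9% and 23.2% in the ctrl pair, against 35.9% and 35.1% in the Zfp276cko pair, so its libraries overlapped. As a log2 ratio per kb, Isg15 over Uba7 was 1.09 and 2.09 in the ctrl pair, against 4.15 and 4.13 in the Zfp276cko pair, and Isg15 over Trim25 was 0.73 and 1.14 in the ctrl pair, against 3.88 and 3.82 in the Zfp276cko pair. The ratios to Ube2l6 and Herc6 were higher in Zfp276cko cells by 1.84 and 1.76. The ratio to Usp18 was −0.78 and 0.53 in the ctrl pair, against 0.45 and 0.48 in the Zfp276cko pair. Exact permutation tests of the 5 ratios gave p = 0.333 (two-sided, adjusted 0.417) for those to Uba7, Ube2l6, Herc6 and Trim25 and p = 1 for that to Usp18, and how often ratios of other genes separate the genotypes was not tested.

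**Figure D3:**
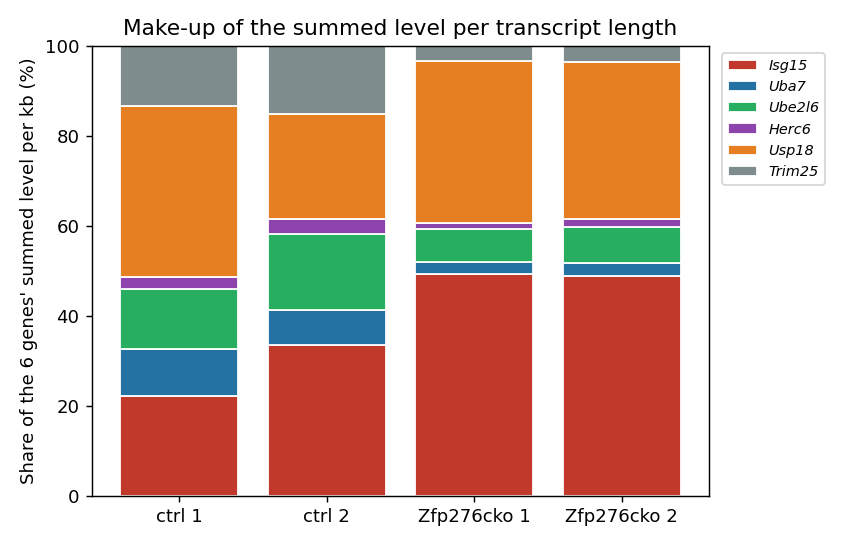
Share of each gene in the summed level per kb of the 6 genes (stacked bars, %), for each library. Isg15 takes 22.1% and 33.5% in the ctrl libraries and 49.2% and 48.9% in the Zfp276cko libraries.

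Genes whose centred log2 levels over the 4 libraries were most like those of each member were sought among 14318 others. Nearest to Isg15 were Gm6545, Ifit3b and Rsad2, with root mean square differences of 0.30, 0.30 and 0.31, and the latter 2 are antiviral genes induced by interferon. Ube2l6 was nearest to Irgm2, an interferon-inducible GTPase (0.046), followed by H2-Q7 (0.053) and Vnn3 (0.091). Irgm2 was also nearest to Herc6 (0.072), before Parp12 (0.088) and Parp9 (0.102). For Usp18 they were Gm45418 (0.073), Xaf1 (0.117) and Mx1 (0.134), and for Trim25 A230050P20Rik (0.054), Stat2 (0.059) and Ifi207 (0.073). Uba7 stood nearest to the transcription factor gene Klf2 (0.055), Tmem140 (0.087) and the chemokine gene Ccl5 (0.102). With 4 libraries, such likeness describes these libraries only.

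Partners of the system, 12 in all and among them the receptor and signalling genes on which Usp18 acts, gave a mixed picture. Of these, 5 had both Zfp276cko libraries above both ctrl libraries (26.4% of the 14324 genes did so) while 2 lay below (24.8%). Their median log2 fold change was 0.18. By the unadjusted p with these thresholds, 3 were higher (5.11% of all tested genes were) and 0 lower, and edgeR's adjusted p called 0 of 12. Among these, Stat2, which brings Usp18 to the receptor, was at 1.83 as a log2 fold change (standard error 0.42), and Irf9 was at 1.499 (standard error 0.32). The receptor genes Ifnar1 and Ifnar2, named with their values already known, had −0.17 (standard error 0.13) and −0.23 (standard error 0.27). Itgal, which encodes a subunit of the receptor for secreted ISG15, had 3405 and 7757 in the ctrl pair, against 7972 and 8051 in the Zfp276cko pair.

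Of 17 genes whose proteins are known substrates of ISG15, 6 lay above and 5 below both ctrl libraries (26.4% and 24.8% of 14324 genes). The median of their log2 fold changes was 0.013. By the unadjusted p and the same thresholds, 4 were higher (5.11% of all tested genes were) and 1 lower. At the adjusted p of edgeR 0 were called. The 4 higher genes are themselves interferon-induced: Mx1 (log2 fold change 3.93, standard error 0.60), a GTPase against viruses, Ifih1 (2.72, standard error 0.31) and Ddx58 (2.45, standard error 0.65), which encode the RNA sensors MDA5 and RIG-I, and Eif2ak2 (1.93, standard error 0.49), which encodes the kinase PKR. The lower gene was Hif1a, singled out after its values were seen, with −0.94 (standard error 0.16).

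The ubiquitin system, which works by the same chemistry, did not show differences of this size. The 11 counterparts are the ubiquitin genes, their E1 enzymes, Ube2l3 and 4 Herc ligases. Of these, 2 lay above and 5 below both ctrl libraries (26.4% and 24.8% of 14324 genes). By the unadjusted p and the thresholds, 1 passed as higher (5.11% of all tested genes did). As log2 fold changes, Rps27a had −0.45, Herc2 −0.42 and Ubb 0.35. Singled out after their values were seen were Ube2l3, the nearest relative of Ube2l6, which had 4567 and 4241 normalized counts in the ctrl pair, against 3904 and 4115 in the Zfp276cko pair (log2 fold change −0.14, standard error 0.10), and the ubiquitin E1 gene Uba1 with −0.16 (standard error 0.12). Of 21 genes of other ubiquitin-like systems (Nedd8, Sumo, Ufm1, Fat10 and Atg12), 20 were tested. None passed the unadjusted p and thresholds, and 4 lay above and 9 below both ctrl libraries, beside the shares just given. Log2 fold changes ranged from −0.44 (Ufc1) to 0.58 (Atg10), with Ufm1 at −0.28 and Sumo2 at −0.26. Ubd, the gene for the interferon-inducible modifier Fat10, had a count of 0 or 1 in each library and was not tested. Differences between the lists were not tested.

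**Figure D4:**
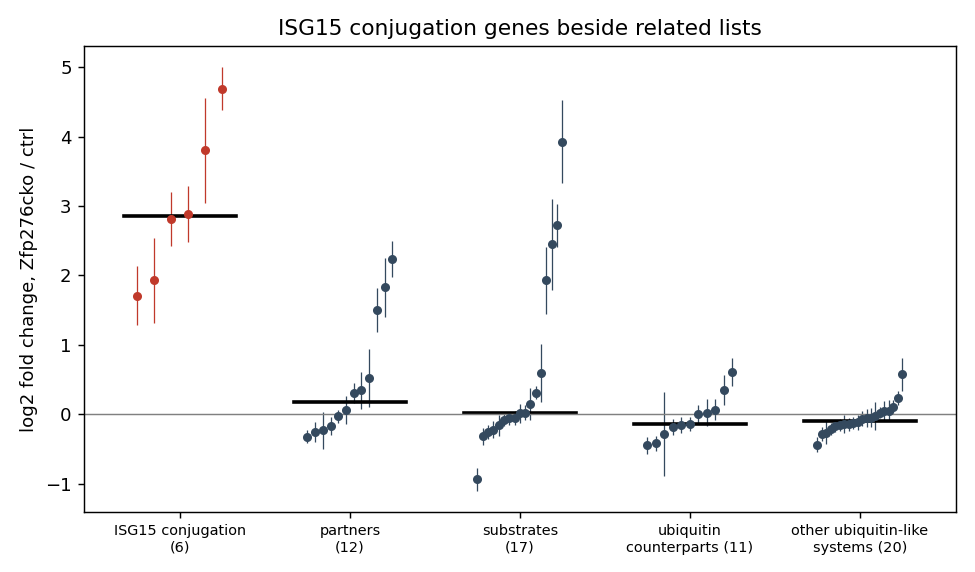
Log2 fold change of each gene (points, with standard errors) in the ISG15 conjugation machinery and in the lists of partners, substrates, ubiquitin counterparts and other ubiquitin-like systems, with black lines at the medians. The medians are 2.85, 0.18, 0.013, −0.14 and −0.091.

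In bulk RNA a lower share of cells of a type and less RNA per cell cannot be told apart, so the levels of other cell types are given beside these results. The summed level of 15 microglia markers was 63432 and 35365 normalized counts in the ctrl pair, against 51726 and 53333 in the Zfp276cko pair, so that the Zfp276cko libraries lay between the ctrl libraries. Of the 15, 4 lay above both ctrl libraries and 0 below (26.4% and 24.8% of 14324 genes). By the unadjusted p and thresholds 2 passed as higher (5.11% of all tested genes), Cd68 (log2 fold change 0.99) and Ptprc (0.76). Csf1r had −1.12 and Trem2 −1.01, and both were highest in ctrl replicate 1. Summed astrocyte markers (7 genes) ranged from 27696 to 34411 in ctrl and from 29320.1 to 30674 in Zfp276cko cells, and neuron markers (6 genes) from 1209.9 to 4126 and from 2936 to 3081. Fibroblast and vessel markers (7 genes, with Cldn5 at 0 in all libraries) summed to 5730 in ctrl replicate 1 and to 231 in ctrl replicate 2, against 302 and 340.2 in Zfp276cko cells, with the excess of ctrl replicate 1 in Col1a1, Col1a2 and Dcn. Of 6 markers of other immune cells, only Itgax was tested, with 19.0 and 22.5 normalized counts in the ctrl pair, against 59.7 and 43.8 in the Zfp276cko pair, and Siglech and Ly6g were at 0. Among the single microglia markers, Aif1, Cx3cr1, Ptprc and Sall1 were lowest in ctrl replicate 1. By summed level, ctrl replicate 1, in which the ISG15 genes were the higher of the ctrl pair, held the most microglia and fibroblast marker RNA. The part of these markers in the levels of the ISG15 genes was not tested.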

How the data were processed

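Per the labels and the methods of the study, stranded mRNA libraries were read as single ends of 101 bases, and the authors mapped them to mm10 with STAR 2.5.4a and counted reads per Ensembl gene. The methods name HTSeq for counting and the submitters' processing notes name featureCounts 1.5.1, and the strand setting is not given in the sources used here. The files as deposited hold raw counts under gene symbols, and the 220 entries with a repeated symbol were not merged. Genes were filtered with filterByExpr, normalized with TMM, and compared between genotypes (2 libraries each) with edgeR 4.0.16 under R 4.3.3, by the quasi-likelihood test on all 15766 genes and without covariates. The mean effective library size was the scale of normalized counts. Genes were called at adjusted p ≤ 0.05 with a log2 fold change of 0.6 or more in size and normalized counts averaging 20 or more. Log2 levels for profiles, gaps and exact permutation tests used a pseudocount of 0.5. DESeq2 1.42.0, limma 3.58.1, other normalization and filters, a replicate block and leaving out each library were alternatives, and the unadjusted p was added after the data were seen. The code was tested on simulated data with the same dispersion in both genotypes. How the tests behave at the unequal spread of these libraries was not simulated. Gene positions and lengths came from GENCODE M21 (mm10). Members and lists were chosen with earlier results of these data known, so that no count or median of a list is independent evidence. Named genes were the members, Zfp276 and Sox10, up to 4 genes per list with the largest absolute fold change, and the 3 genes nearest in profile to each member; others are marked in the text, except marker genes that the text names beside their list. Sequences of proteins and of the Usp18 promoter were not used here. Replicates are separate preparations, and p-values measure the spread between these. Single members of the lists of partners and of ubiquitin counterparts enter the counts, medians and the plot but are not reported here by name.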

Additional observations from a re-analysis of the deposited data

How the results depend on the processing

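Calls depended on the test. In 10 alternative fits of each of the 6 genes, 60 of 60 log2 fold changes kept their direction. These fits reused the same separated libraries and so could hardly give another direction. The median of the 6 stayed between 2.39 and 3.49. DESeq2 called 445 genes higher and 335 lower, among them 6 of the 6 genes, and limma voom with quality weights per genotype called 133 higher and 72 lower, among them 5 of the 6. When low counts were not filtered, 8 genes passed as higher and 0 as lower, of which Isg15 was 1. The unadjusted p, added after the data were seen, gave 806 higher and 476 lower and 6 of the 6 genes. With each library left out in turn, between 0 and 1792 genes were called higher, between 0 and 1286 lower, and between 0 and 6 of the 6 genes. The high counts came without ctrl replicate 1 (1689 higher, 952 lower, 6 of 6) and without ctrl replicate 2 (1792 higher, 1286 lower, 6 of 6), where by construction the spread comes from the Zfp276cko pair alone and the lone ctrl library is assumed to vary likewise. Without either Zfp276cko library no gene was called. Size factors of DESeq2, at least 10 counts in every library and the replicate block each left 0 genes called. The labels give no pairing of same-numbered libraries beyond the number. Deviations of same-numbered libraries had a correlation of −0.0050 over 15766 genes. This cannot exclude a shared preparation, since the Zfp276cko replicates hardly differed. With the replicate block the median log2 fold change of the 6 genes was 2.93. As for depth, the lowest raw count of the 6 genes in a library was 84, for Herc6 in ctrl replicate 2.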
